A study of Homo sapiens with 12 samples.

Results

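The UBE2 genes encode the ubiquitin-conjugating enzymes, or E2s. The members described here are the 36 protein-coding genes whose symbol starts with UBE2, of 19821 protein-coding genes and 58676 genes in all. Another 52 genes with such a symbol are of other types (pseudogenes, antisense RNAs and the like) and were left out. A mean of at least 1 FPKM (fragments for each kilobase of gene length, scaled to the library's assigned reads) over the 12 libraries was required for testing, and 30 of the 36 members met it. RNA was sequenced from A549 cells, an established line of human lung carcinoma: 1 control line (Control1 in the labels) and 2 NFE2L1 knockout lines (NFE2L1 KO1 and NFE2L1 KO2, here KO1 and KO2). Each line received DMSO vehicle or the proteasome inhibitor bortezomib at 200 nM, both for 4 h, and each of the 6 groups held 2 libraries. There was a single control line, so effects of the knockout and other differences between lines cannot be told apart. The labels do not say that the 2 libraries of a group came from separate cultures, and the p-values then measure only the spread between these libraries, which may be technical.

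Ubiquitin is activated by an E1 enzyme, passed to the active-site cysteine of an E2, and attached to a substrate with the help of an E3 ligase. The E2 often decides which kind of chain is built, and some members carry NEDD8 or ISG15, proteins related to ubiquitin, in its place. Chains of the degradative kind send proteins to the proteasome, which bortezomib blocks. NFE2L1 is a transcription factor of the endoplasmic reticulum known for raising the genes of proteasome subunits after proteasome inhibition.

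Promoter sequence was read for members whose response stood out, because the values described later differ in direction among them. RefSeq (GRCh38.p14) gave promoters for 28 of the 36 members. UBE2C, UBE2H and UBE2B, whose large changes are described later, were not among these and were not searched. The 250 bases before each start were searched on both strands for 5 motifs. They were CCAAT (the box bound by NF-Y), TTTGAA (the core of the CHR element of cell cycle genes), TGACGT (the core of the site for CREB and ATF factors), TGACNNNGC (the core of the antioxidant response element, which NFE2L1 also binds) and GAANNTTC (the core of the heat shock element). The CREB and antioxidant motifs can overlap, since both start with TGAC. The members shown are UBE2T, which was lower with bortezomib in every line, UBE2S, a partner of UBE2C in the same ligase, and UBE2O, which differed most between the lines. Letters in capitals mark matches on either strand, and stretches in annotated untranslated regions were cut off. The windows lie at chr1:202341967-202342186 for UBE2T, chr19:55407789-55408038 for UBE2S and chr17:76453207-76453350 for UBE2O, each read on the minus strand of GRCh38.p14.
UBE2T: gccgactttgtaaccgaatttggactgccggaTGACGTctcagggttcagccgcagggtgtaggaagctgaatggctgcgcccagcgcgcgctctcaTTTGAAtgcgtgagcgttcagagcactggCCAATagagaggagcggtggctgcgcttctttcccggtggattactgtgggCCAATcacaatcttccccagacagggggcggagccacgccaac
UBE2S: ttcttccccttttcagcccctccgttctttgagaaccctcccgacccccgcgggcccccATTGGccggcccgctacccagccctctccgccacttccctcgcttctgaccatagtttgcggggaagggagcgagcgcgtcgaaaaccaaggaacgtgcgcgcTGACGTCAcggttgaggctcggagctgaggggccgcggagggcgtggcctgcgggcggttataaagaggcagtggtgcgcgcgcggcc
UBE2O: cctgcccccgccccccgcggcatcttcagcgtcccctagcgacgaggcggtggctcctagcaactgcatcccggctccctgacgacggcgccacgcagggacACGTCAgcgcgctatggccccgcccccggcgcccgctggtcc
UBE2T held the CCAAT box at 2 places and the CHR and CREB cores at 1 place each. UBE2S held a CCAAT box and the CREB core on both strands, and UBE2O held the CREB core. A gene can have several windows: the 28 matched members had 40, and 27305 genes in all had 35116. CCAAT was found in 10 of the 28 members, against 37% of all genes (32% of windows). TGACGT was found in 7 members (8.62% of genes, 7.1% of windows), TTTGAA in 4 (16.1%, 13.3%), TGACNNNGC in 4 (13.2%, 10.9%) and GAANNTTC in 0 (7.05%, 5.78%). UBE2F and its read-through gene UBE2F-SCLY share a locus, and both count among the members with CCAAT and TTTGAA. Of the 28 matched members UBE2T alone held both the CHR and the CREB core. The members with TGACNNNGC were UBE2D2, UBE2J1, UBE2K and UBE2Q2.

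The libraries held 13211608 to 23819258 assigned reads. NFE2L1 was at 72.7 and 151 FPKM in the 2 control vehicle libraries, 8.45 and 14.8 in KO1 and 18.6 and 33.6 in KO2, so both libraries of each KO line were lower than both control libraries. The epithelial keratin genes KRT8, KRT18 and KRT7 were high in every library (112 to 755 FPKM), EPCAM (1.25 to 10.6 FPKM) and CDH1 (1.42 to 9.53 FPKM), also epithelial, were low, and 3 lung epithelial genes (SFTPB, SFTPC and NKX2-1) stood at or near 0. Of the 9 markers of other cell types 8 stayed at 0.408 FPKM or less, and COL1A1 reached 23.3. Libraries whose title ends in R2 stood apart from their partners, which carry R1 in the KO lines and no suffix in the control line. The mitochondrial share of reads was 5.44% to 6.80% in the unnumbered and R1 libraries and 12.3% to 19.3% in the R2 libraries.

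The E2 family followed this split. The 36 members summed to 700 to 762 FPKM in the unnumbered and R1 libraries and to 303 to 453 FPKM in the R2 libraries, with no overlap. Of the 30 tested members 27 were lower in R2 in all 6 groups, and UBE2O and UBE2G2 were among those that were not. The same count over all genes is not given here. The median difference over the members, R2 minus its partner on the log2(FPKM + 1) scale, lay between -1.25 and -0.72 by group, against -0.34 to -0.11 over all 12194 genes tested. The mitochondrial share also split by suffix, and its part in this difference was not tested. Values are therefore given with the unnumbered or R1 library first and R2 second, and each result also with the suffix as a replicate block.

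UBE2S was the highest member in the control line with vehicle, at 129 and 65.0 FPKM (97.1 ± 45.5, SD, n = 2), followed by UBE2C at 64.9 ± 27.6 (SD, n = 2) and UBE2M at 55.4 ± 28.6 (SD, n = 2). UBE2T, UBE2Z, UBE2D2 and UBE2L3 followed, and UBE2F and UBE2W were the lowest tested members, with means of 1.30 and 1.20 FPKM. Each overlaps a read-through gene or another coding gene on its own strand (UBE2F-SCLY and AC022826.2, both at or near 0), so how the counting split their reads bears on these levels. The order was loose. Of the 35 neighbouring pairs among the 36 members 18 stood in the same order in both libraries, and only 4 had ranges that did not overlap. All 30 tested members were lower in the R2 library. The ranges therefore span this shared difference, and their overlap does not settle the order of neighbours.

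**Figure D1:**
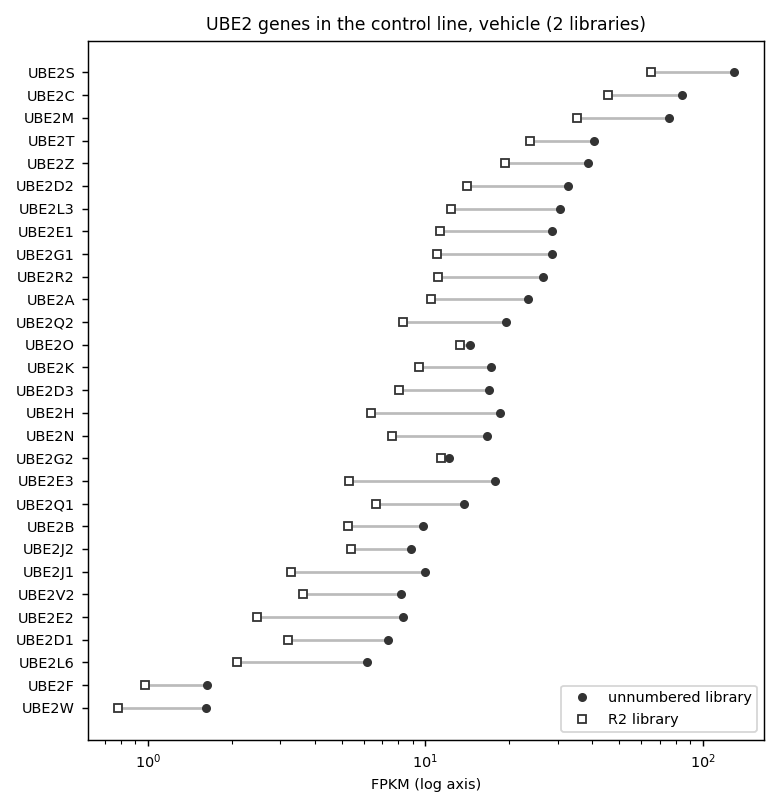
FPKM (log axis) of the tested UBE2 genes reported here in the 2 control vehicle libraries, ordered by their mean; the grey bar joins the unnumbered library (circle) and the R2 library (square). UBE2S and UBE2C lead, UBE2F and UBE2W are lowest, and all genes shown are lower in the R2 library, with the smallest gaps in UBE2O and UBE2G2.

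The 6 members under the filter were UBE2D4, UBE2Q2L, UBE2V1, UBE2QL1, UBE2U and UBE2F-SCLY. UBE2D4, a relative of the broadly used UBE2D enzymes, was at 0.658 to 1.12 FPKM over the vehicle libraries and 0.393 to 0.642 over the bortezomib libraries, and these ranges did not overlap. UBE2V1, a catalytically inactive partner of UBE2N, was at 0.329 to 1.16 FPKM. It lies within the read-through gene TMEM189-UBE2V1, listed at 0 in every library, so how the counting split their reads bears on this level. UBE2Q2L was at 0 to 0.956 FPKM, which is at most 9 reads. UBE2QL1 had at most 4 reads in a library and none in 6 libraries. UBE2U had 2 reads in 1 library and none in the other 11, and the read-through gene UBE2F-SCLY had 1 read in each of 2 libraries.

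Bortezomib lowered UBE2C and UBE2T, E2s of cell division and DNA repair, and most other members were higher with it. The first comparison was the mean over the 3 lines of bortezomib minus vehicle. In limma without a replicate term 2 of the 30 tested members passed an adjusted p of 0.05, UBE2C and UBE2T, both lower. Among all 12194 genes 11.6% passed, 4.85% higher and 6.76% lower. The median log2 fold change was 0.33 over the 30 members, with 25 of them above 0, and -0.01 over all genes tested. Leaving out 1 library moved the members' median between 0.14 (without R2 vehicle of KO1, 19 above 0) and 0.53 (without R1 vehicle of KO1, 26 above 0). With the suffix as a block 22 members passed (19 higher, 3 lower), against 27.0% of all genes higher and 27.9% lower (54.9% in either direction). A block that joins unnumbered with R1 libraries also called 22 (54.9% of all genes), and voom with the block 23 (58.0%). Without regard to any test, 19 members were higher in all 6 pairs of libraries, a direction seen in 24.8% of all genes, and 3 were lower in all 6, seen in 23.8%. Within the 6 unnumbered and R1 libraries alone 17 members passed (12 higher, 5 lower, 46.6% of all genes in either direction), and within the R2 libraries alone 16 passed (14 higher, 2 lower, 38.7% of all genes).

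**Figure D2:**
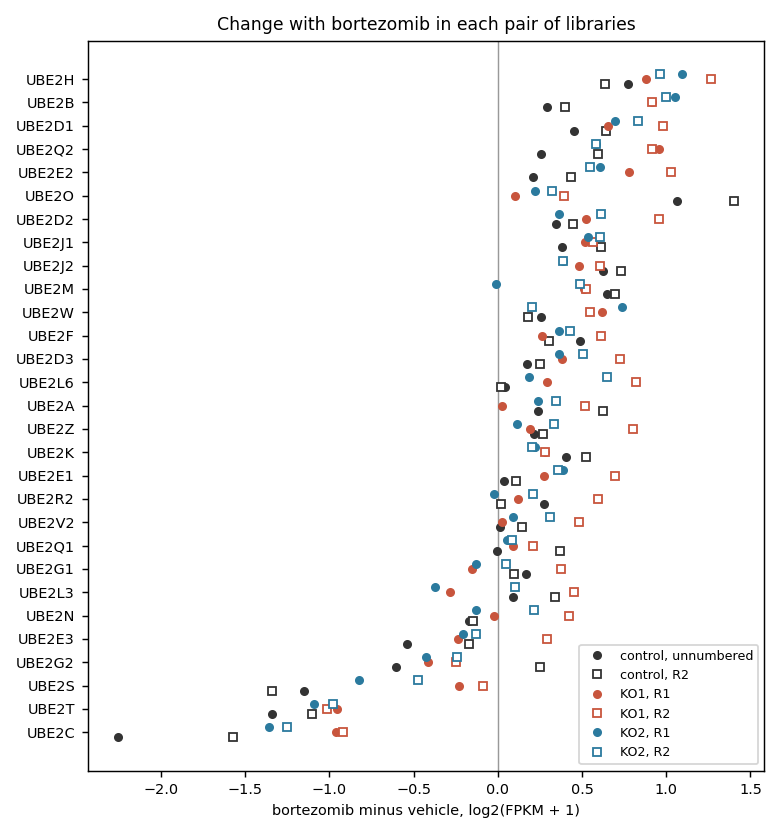
Difference between bortezomib and vehicle on the log2(FPKM + 1) scale for each tested UBE2 gene reported here, 1 point for each pair of libraries with the same suffix (colours are lines, filled points unnumbered or R1, open points R2), ordered by the mean over lines. UBE2C, UBE2T and UBE2S lie left of 0 in all 6 pairs, UBE2H, UBE2B and UBE2D1 lie right of 0 in all 6, and UBE2O has its control points far right of its KO points.

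UBE2C (ENSG00000175063, GRCh38 chromosome 20, 45812576 to 45816957, plus strand), which works with the anaphase-promoting complex to start the chains that let cells leave mitosis, fell most. In the control line it was at 84.4 and 45.4 FPKM with vehicle and 16.9 and 14.6 with bortezomib. KO1 went from 72.2 and 35.7 to 36.7 and 18.4, and KO2 from 83.7 and 42.9 to 32.0 and 17.5. Every bortezomib library was lower than its partner with the same suffix, at 0.200 to 0.516 times its level, while over the 12 libraries the treatments overlapped slightly. The log2 fold change over the lines was -1.39 (SE 0.33, limma adjusted p = 0.0258, lower in 6 of 6 pairs; with the block, SE 0.10 and adjusted p = 8.57e-06). In bulk RNA fewer cells of a type and less RNA per cell cannot be told apart.

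UBE2T (ENSG00000077152, chromosome 1, 202331657 to 202341980, minus strand) monoubiquitinates the Fanconi anemia protein FANCD2 together with the ligase FANCL. Its promoter was the one with the CCAAT, CHR and CREB matches. The control line had 40.7 and 23.9 FPKM with vehicle and 15.4 and 10.6 with bortezomib. KO1 went from 36.5 and 19.5 to 18.3 and 9.15, and KO2 from 35.6 and 25.0 to 16.2 and 12.2. All 6 bortezomib libraries were lower than all 6 vehicle libraries. The log2 fold change over the lines was -1.08 (SE 0.28, limma adjusted p = 0.0342, lower in 6 of 6 pairs; with the block, SE 0.10 and adjusted p = 3.33e-05). Without the block the calls of UBE2C and UBE2T were lost on leaving out either control bortezomib library, the unnumbered control vehicle library, or R1 vehicle or R2 bortezomib of either KO line, and that of UBE2T also without R2 vehicle or R1 bortezomib of KO2 (limma adjusted p 0.0541 to 0.0925 over these fits). They were also lost with no filter on low values (limma adjusted p = 0.0564 and 0.0644) and after rescaling to a common sum (0.0634 and 0.091). Both were called in all 12 fits that left out 1 library with the block.

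UBE2S (ENSG00000108106, chromosome 19, 55399745 to 55407777, minus strand) extends the chains that UBE2C starts on substrates of the anaphase-promoting complex. It was at 129 and 65.0 FPKM with vehicle and 57.8 and 25.0 with bortezomib in the control line. In KO1 the values were 83.7 and 33.2 with vehicle and 71.3 and 31.1 with bortezomib, and in KO2 they were 118 and 55.8 and then 66.3 and 40.0. Bortezomib libraries were lower in 6 of 6 pairs, by least in KO1. The log2 fold change over the lines was -0.68 (SE 0.40, limma adjusted p = 0.316) and passed only with the block (SE 0.10, adjusted p = 0.000382). RPL28 lies across UBE2S on the opposite strand with 22.3 to 81.0 FPKM, and was higher with bortezomib where UBE2S was lower. RPL28 went from 67.6 and 33.6 FPKM to 69.0 and 53.8 in the control line. In KO1 it went from 47.9 and 22.3 to 61.2 and 49.7, and in KO2 from 76.6 and 38.3 to 81.0 and 67.3. Whether the counting used strand is not given in the sources used here, so reads of the pair cannot be told apart.

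A list of 16 cell cycle markers (MKI67, CCNB1, MCM2 and others) was set beside these 3 genes. Bortezomib lowered 11 of the 16 without the block (6.76% of all genes) and all 16 with it (27.9% of all genes). Their median log2 fold change was -1.38, against -0.01 over all genes. TOP2A, which untangles chromosomes, changed most in the list, from 110 to 185 FPKM with vehicle to 17.1 to 45.4 with bortezomib (log2 fold change -2.33, SE 0.32, limma adjusted p = 0.00231, lower in 6 of 6 pairs). Summed over the list, the vehicle libraries had 435 to 975 FPKM and the bortezomib libraries 189 to 318, without overlap. The sum of UBE2C, UBE2S and UBE2T was at 88.4 to 254 FPKM with vehicle and 50.2 to 126 with bortezomib, and moved with the list. The part of the cell cycle in the fall of the 3 genes was not tested.

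**Figure D3:**
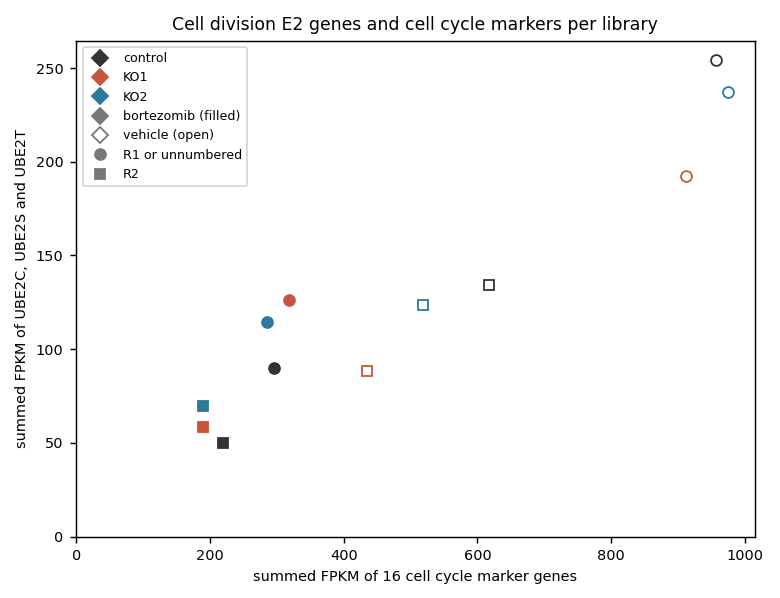
Summed FPKM of UBE2C, UBE2S and UBE2T against the summed FPKM of 16 cell cycle marker genes, 1 point per library (open vehicle, filled bortezomib, circles unnumbered or R1, squares R2, colours lines). Bortezomib libraries all lie at 318 or less on the horizontal axis and vehicle libraries at 435 or more.

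UBE2H (ENSG00000186591, chromosome 7, 129830732 to 129952949, minus strand), the E2 of the CTLH ligase complex, had the highest log2 fold change among the members. It was at 18.6 and 6.39 FPKM with vehicle and 32.6 and 10.5 with bortezomib in the control line. KO1 values were 17.4 and 5.74 with vehicle and 32.9 and 15.2 with bortezomib, and KO2 values 18.5 and 9.62 and then 40.6 and 19.7. Each bortezomib library was 1.64 to 2.65 times its partner, but the R2 bortezomib libraries overlapped the R1 vehicle libraries. The log2 fold change over the lines was 0.93 (SE 0.43, limma adjusted p = 0.202, higher in 6 of 6 pairs) and it passed with the block (SE 0.09, adjusted p = 5.17e-05).

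UBE2A and UBE2B are the human forms of yeast RAD6, which act with RAD18 in bypass of DNA damage and with RNF20 and RNF40 on histones. UBE2B (ENSG00000119048, chromosome 5, 134371179 to 134391992, plus strand) was at 9.77 and 5.26 FPKM in the control line and 12.2 and 7.24 with bortezomib. In KO1 it went from 10.3 and 4.99 to 20.2 and 10.3, and in KO2 from 9.38 and 5.57 to 20.5 and 12.1. All 6 pairs were higher, by 1.25 and 1.38 times in the control line and by 1.97 to 2.19 times in the KO lines. The log2 fold change over the lines was 0.76 (SE 0.29, limma adjusted p = 0.124; with the block, SE 0.08 and adjusted p = 5.35e-05). UBE2A, between 8.84 and 27.8 FPKM, had a smaller value of 0.33 (SE 0.33), called with the block (limma adjusted p = 0.0235, higher in 6 of 6 pairs). It shares its locus with NKRF on the opposite strand, which was also higher with bortezomib. NKRF went from 7.48 and 5.09 FPKM to 9.41 and 5.74 in the control line. In KO1 it went from 9.57 and 4.44 to 14.95 and 8.96, and in KO2 from 8.53 and 4.42 to 11.7 and 10.3. The part of NKRF reads in the UBE2A result was not tested.

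Of the UBE2D enzymes, which serve a wide range of RING ligases, all 3 tested forms were called higher with the block. UBE2D4, which fell under the filter, was lower with bortezomib (0.393 to 0.642 FPKM, against 0.658 to 1.12 with vehicle). It had 35 to 114 reads in a library. Without the block it was not called for bortezomib over the lines, either at a filter of 0.1 FPKM or with no filter. UBE2D1 was at 7.36 and 3.19 FPKM in the control line and 10.4 and 5.53 with bortezomib. Its level in KO1 went from 8.29 and 2.61 to 13.6 and 6.13, and in KO2 from 7.82 and 3.92 to 13.3 and 7.75. All pairs were higher, by 1.42 to 2.35 times. The log2 fold change over the lines was 0.71 for UBE2D1 (SE 0.34, limma adjusted p = 0.219 without and 0.000307 with the block), 0.54 for UBE2D2 and 0.40 for UBE2D3. Over the libraries UBE2D2 stood at 10.0 to 46.3 FPKM and UBE2D1 at 2.61 to 13.6.

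In the UBE2E group, relatives of UBE2D with an extended N-terminus, 2 of the 3 genes passed with the block, both higher. UBE2E2 was at 8.34 and 2.47 FPKM in the control line and 9.77 and 3.68 with bortezomib. Values in KO1 went from 6.27 and 1.40 to 11.5 and 3.88, and in KO2 from 7.44 and 2.79 to 11.9 and 4.53. It was higher in 6 of 6 pairs (log2 fold change 0.60, SE 0.45, limma adjusted p = 0.445 without and 0.000379 with the block). UBE2E1 had 0.31 and was called with the block. UBE2E3 had 17.8 and 5.29 FPKM in the control line and 11.96 and 4.57 with bortezomib. Its values went from 15.6 and 4.51 to 13.1 and 5.74 in KO1 and from 12.4 and 6.04 to 10.6 and 5.44 in KO2. It was lower in 5 of 6 pairs and passed in neither fit (log2 fold change -0.17, SE 0.42, limma adjusted p = 0.849 without and 0.227 with the block). UBE2E3 was called lower in the unnumbered and R1 libraries alone, and with the block when R2 vehicle of KO1 was left out.

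The E2s with large or unusual bodies include UBE2Q1 and UBE2Q2, with a long N-terminal part, and UBE2O, an enzyme that acts as E2 and E3 at once. UBE2Q2 was at 19.6 and 8.29 FPKM in the control line and 23.6 and 13.0 with bortezomib. In KO1 it went from 11.2 and 5.40 to 22.7 and 11.1, and in KO2 from 17.2 and 9.87 to 26.3 and 15.3. It was higher in 6 of 6 pairs (log2 fold change 0.65, SE 0.33, limma adjusted p = 0.242 without and 0.000208 with the block). UBE2Q1 was at 13.8 and 6.62 FPKM in the control line and 13.8 and 8.83 with bortezomib. For KO1 the values were 17.2 and 9.37 and then 18.3 and 11.0, and for KO2 they were 13.8 and 10.2 and then 14.4 and 10.8. All lines overlapped, and its log2 fold change of 0.13 (SE 0.26) passed in neither fit.

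The members used in degradation and at the endoplasmic reticulum were UBE2G1, UBE2G2, UBE2J1, UBE2J2, UBE2K and UBE2R2. UBE2J1 and UBE2J2, anchored in the membrane of the reticulum, had log2 fold changes of 0.54 each and passed with the block, as did UBE2K (0.32), which builds degradative chains. UBE2G2, the soluble E2 of the same disposal route, was at 12.2 and 11.4 FPKM in the control line with vehicle and 7.67 and 13.8 with bortezomib. Its values went from 12.1 and 18.7 to 8.78 and 15.6 in KO1 and from 12.1 and 20.1 to 8.77 and 16.8 in KO2. It was lower in 5 of 6 pairs, and passed in limma neither without nor with the block (log2 fold change -0.28, SE 0.27, adjusted p = 0.56 and 0.0576). It was called lower in voom with the block (adjusted p = 0.0245), in the unnumbered and R1 libraries alone, and with the block without R2 vehicle or R2 bortezomib of the control line. UBE2G1 (0.07) and UBE2R2 (0.20), an E2 of cullin ligases, were not called either.

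Among the E2s for other modifiers, UBE2M and UBE2F for NEDD8 and UBE2L6 for ISG15 rose in the block fit, as did UBE2Z, which is charged by the second ubiquitin E1, UBA6. UBE2M was at 75.6 and 35.2 FPKM in the control line and 119 and 57.7 with bortezomib. In KO1 it went from 53.4 and 24.6 to 76.7 and 35.7, and in KO2 from 81.1 and 41.2 to 80.5 and 58.3. It was higher in 5 of 6 pairs, the exception being R1 of KO2 (log2 fold change 0.48, SE 0.37, limma adjusted p = 0.467 without and 0.00369 with the block). UBE2L6 was low, at 6.17 and 2.09 FPKM in the control line and 6.37 and 2.13 with bortezomib. KO1 levels went from 5.97 and 1.54 to 7.54 and 3.50, and KO2 levels from 3.49 and 0.898 to 4.09 and 1.98. It was higher in 6 of 6 pairs, by at most 1.03 times in the control line (log2 fold change over the lines 0.33, SE 0.39, limma adjusted p = 0.655 without and 0.0197 with the block).

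UBE2N and its partner UBE2V2, which build the chains used in signaling and repair, had log2 fold changes of 0.03 and 0.18, and UBE2L3, an E2 of HECT and RBR ligases, had 0.05. These 3 were called in neither fit. UBE2W, which modifies the N-terminus of proteins, had 0.42 and passed with the block (limma adjusted p = 0.00765, higher in 6 of 6 pairs).

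**Figure D4:**
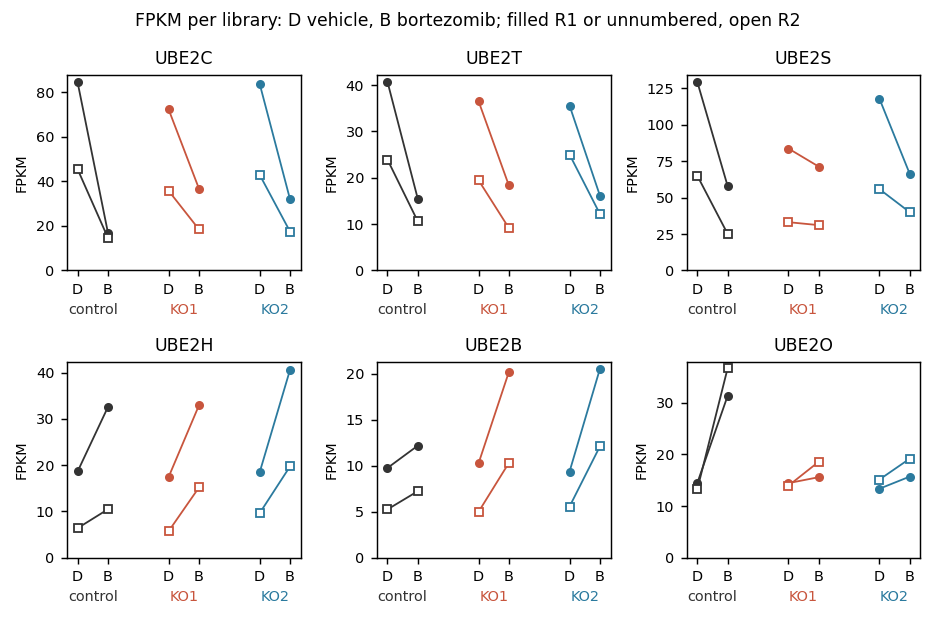
FPKM per library of 6 UBE2 genes, each axis starting at 0; lines join vehicle (D) to bortezomib (B) for libraries of the same line and suffix. UBE2C, UBE2T and UBE2S slope down in all pairs, UBE2H and UBE2B slope up, and UBE2O climbs to 31.4 and 36.7 FPKM in the control line and to at most 19.2 in the KO lines.

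Line by line, limma without the block called 0 members in each. At an unadjusted p under 0.05 the control line had 3 members, KO1 had 0 and KO2 had 1, against 12.3%, 9.46% and 9.59% of all genes, and voom (limma on the recovered reads) without the block also called 0 in each. Among all genes 0.467% were called for the control line, 0.238% for KO1 and 0.32% for KO2. With the block 10 members passed in the control line (7 higher, 3 lower), against 16.1% of all genes higher and 16.4% lower. In KO1 14 passed (12 higher, 2 lower, against 13.9% and 13.8%), and in KO2 9 passed (6 higher, 3 lower, against 12.7% and 14.4%). Voom with the block called 12, 16 and 12 members in the control line, KO1 and KO2, against 37.9%, 32.9% and 32.4% of all genes. Leaving out 1 library of the line itself left 4 to 5 members called in the control line (14.3% to 18.5% of all genes) and 4 to 6 in KO2 (9.32% to 14.0%). In KO1 it left 5 to 6 (10.8% to 15.5%), except that without R1 vehicle KO1 had 16 (22.9%). UBE2C, UBE2O, UBE2S and UBE2T were called in the control line in all 12 fits that left out 1 library with the block. In KO1 these were UBE2B, UBE2C, UBE2E2, UBE2H and UBE2Q2, and in KO2 UBE2B, UBE2C, UBE2H and UBE2T. These names alone do not show that the lines differ, which the interaction tests.

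UBE2O (ENSG00000175931, chromosome 17, 76389451 to 76453206, minus strand) had the largest difference in response between the KO and control lines. It was at 14.5 and 13.3 FPKM in the control line with vehicle and 31.4 and 36.7 with bortezomib. For KO1 it went from 14.4 and 13.9 to 15.6 and 18.6, and for KO2 from 13.3 and 15.1 to 15.7 and 19.2. Vehicle libraries of all lines lay within 13.3 to 15.1 FPKM, all bortezomib libraries were higher than these, and both control bortezomib libraries were higher than all 4 of the KO lines. The ratio to the partner library was 2.16 and 2.76 in the control line, and for KO1 it was 1.08 and 1.33, for KO2 1.18 and 1.27. UBE2O was not lower in R2 in every group. Its log2 fold change over the 3 lines was 0.58 (SE 0.17, limma adjusted p = 0.0587; with the block, SE 0.09 and adjusted p = 0.00045, higher in 6 of 6 pairs). In the control line the log2 fold change was 1.23 (SE 0.30, limma adjusted p = 0.119; with the block, SE 0.15 and adjusted p = 0.000563), and it was 0.25 in KO1 and 0.27 in KO2, neither called in either fit.

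The interaction asks whether the bortezomib response of the KO lines, as their mean, differed from that of the control line. For UBE2O it was -0.97 (SE 0.37, limma adjusted p = 1, and unadjusted p = 0.0254 in the fit across all genes), and with the block its SE was 0.18 and its adjusted p = 0.12. With voom and the block it was -1.01 (SE 0.20, adjusted p = 0.0186), lower in both KO lines and both suffixes. This was the single member called there, against 0.943% of all genes. Limma called 0 members and 0.0% of all genes both without and with the block, with 1 and 5 members at an unadjusted p under 0.05 (0.943% and 10.7% of all genes), and voom without the block called 0 members. For UBE2S the interaction was 0.84, for UBE2C 0.79, for UBE2B 0.63 and for UBE2M -0.29, none called in any fit. The median over the 30 members was 0.18, against 0.01 over all genes, but 1 library turned its sign: it was -0.35 without the unnumbered control vehicle library (4 above 0) and 0.66 without R2 control vehicle (28 above 0).

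**Figure D5:**
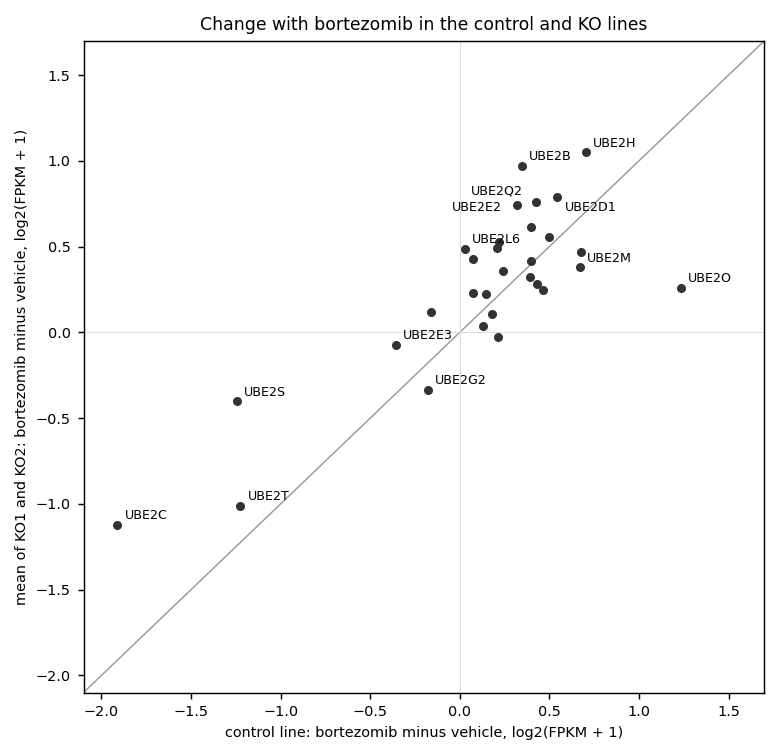
Difference between bortezomib and vehicle on the log2(FPKM + 1) scale in the control line (horizontal) and as the mean of KO1 and KO2 (vertical) for the 30 tested UBE2 genes; the diagonal marks equal values. UBE2O lies farthest under the diagonal (1.23 in the control line), and UBE2C, UBE2S and UBE2B lie above it.

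The knockout was compared with the control line in vehicle. The KO1 and KO2 comparisons share the control libraries. No member passed in limma without the block for the mean of both lines (0.344% of all genes called), for KO1 (0.213%) or for KO2 (0.23%), and 0 members had an unadjusted p under 0.05 in any of the 3 (4.6%, 4.41% and 3.55% of all genes). Voom without the block also called 0 in each. With the block by suffix again 0 passed, against 6.18%, 5.95% and 4.91% of all genes, with 3, 6 and 4 members at an unadjusted p under 0.05 (21.7%, 21.7% and 19.1% of all genes). The median over members was 0.06 and over all genes 0.04 for the mean of both lines, and it too turned with 1 library: 0.53 without the unnumbered control vehicle library (30 members above 0) and -0.47 without R2 control vehicle (1 above 0). In this block the KO and control lines are tied mainly through R2, since R1 occurs only in KO lines and the unnumbered libraries only in the control line. When the unnumbered libraries shared a block level with R1, UBE2S and UBE2Q2 were called lower in KO1 (7.96% of all genes called) and UBE2L6 lower in KO2 (4.89%). Voom with the block by suffix called UBE2S alone in KO1, against 9.83% of all genes, and 0 members in KO2 or for the mean of both lines.

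UBE2S with vehicle was at 83.7 and 33.2 FPKM in KO1, 118 and 55.8 in KO2 and 129 and 65.0 in the control line. It was lower than the control library of the same rank in all 4 pairs, at 0.648 and 0.510 times its level in KO1, while the ranges of the groups overlapped. The log2 difference for KO1 was -0.79 (SE 0.69, limma adjusted p = 1), with adjusted p = 0.0537 in the block by suffix, 0.0171 in the block that joins the unnumbered libraries with R1 and 0.0145 with voom and the block by suffix. RPL28, on the opposite strand, was also lower in KO1 with vehicle, at 47.9 and 22.3 FPKM against 67.6 and 33.6 in the control line. Its part in the result was not tested.

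For UBE2Q2 the values with vehicle were 11.2 and 5.40 FPKM in KO1, 17.2 and 9.87 in KO2 and 19.6 and 8.29 in the control line. The KO1 libraries were the lower of each pair (log2 difference -0.64, SE 0.57, limma adjusted p = 1, and 0.0217 in the block joining unnumbered and R1 libraries). UBE2L6 stood at 3.49 and 0.898 FPKM in KO2, the lowest of the 3 lines, against 6.17 and 2.09 in the control line (log2 difference -0.69, SE 0.68, limma adjusted p = 1, and 0.0481 in the same alternative). UBE2G2 and UBE2Q1 had the highest values for the mean of both KO lines, 0.35 (SE 0.40) and 0.32 (SE 0.39), and were called in no fit. UBE2G2 was within 12.1 to 12.2 FPKM in the unnumbered and R1 vehicle libraries and at 11.4, 18.7 and 20.1 in the R2 libraries of the control line, KO1 and KO2, so its libraries differed among R2 and hardly among the others.

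The enzymes and modifiers around the E2s were counted from lists. Among all genes 11.6% were called for bortezomib over the lines without the block and 54.9% with it. Of 8 tested E1 genes 0 were called for bortezomib over the lines by limma without the block and 1 higher with it, UBA6 (3.19 to 7.10 FPKM with vehicle, log2 fold change 0.34, SE 0.26, adjusted p = 0.00372 with the block, higher in 6 of 6 pairs). Of 8 genes with an E2 fold but another symbol, 0 were called without the block and 3 with it (UEVLD higher, ATG10 and AKTIP lower). The largest change there was in AKTIP, an inactive relative, at -0.39 (SE 0.16, limma adjusted p = 0.146 without and 0.0114 with the block, lower in 6 of 6 pairs). Of the 11 modifier genes reported here 0 were called without the block and 3 with it, UBB (log2 fold change 1.46, a gene that encodes a chain of ubiquitins) and UFM1 (0.55) higher and NEDD8 (-0.46) lower. Their limma adjusted p with the block was 0.000139, 0.000431 and 0.00634, and without it 0.104, 0.21 and 0.296.

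Of 41 ligases and cofactors known to work with particular E2s, limma without the block called 3 higher and 1 lower. Its calls over all genes were 4.85% higher and 6.76% lower. The block fit called 20 of the 41 higher and 5 lower, against 27.0% and 27.9% of all genes. The 5 were CDC20, RNF139, RBX1, FANCL (the partner of UBE2T, -0.44) and ANAPC11. Their median was 0.25, against 0.33 over the E2 members and -0.01 over all genes. The 3 called higher without the block were BIRC2 (1.17) and TRAF6 (0.66), ligases of immune signaling, and UBR2 (0.63), which works with the RAD6 enzymes. CDC20, the activator of the complex that UBE2C and UBE2S serve, fell from 25.3 to 101 FPKM with vehicle to 8.31 to 32.2 with bortezomib (log2 fold change -1.78, SE 0.40, limma adjusted p = 0.0221, lower in 6 of 6 pairs). In the interaction limma called 0 genes in each list, without and with the block. For the mean of both KO lines in vehicle the only listed gene called was the cell cycle marker BUB1, lower with the block (log2 difference -0.92, limma adjusted p = 0.0109). Among all genes 6.18% were called there. Listed genes called with the block were named after their values were seen.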

How the data were processed

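RNA was extracted on columns from A549 cells and primed with random hexamers, per the labels' protocols. The submitters' processing notes name CASAVA, STAR 2.5, HTSeq 0.6.1, DESeq2 and the build hg19, without saying what each was used for. The authors deposited FPKM for each gene and library, with a gene length. The table's positions are those of GENCODE 29 (GRCh38) for 95.3% of genes and for all 36 members. FPKM times length gave whole reads (tolerance 0.05) for 100% of values, which gave the depth. An FPKM of 0.126 to 0.227 in a gene of 1 kilobase is 3 reads.

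Groups come from the labels. The functions lmFit, contrasts.fit and eBayes (with trend) of limma 3.58.1 under R 4.3.3 were fitted on log2(FPKM + 1), 1 mean per group, over 12194 genes with mean FPKM of at least 1, with Benjamini-Hochberg adjustment and a threshold of 0.05. The scale understates changes of low genes. The script was tested on simulated data. Title suffixes (R1, R2, none) gave the replicate block. The replicate difference correlated between all 15 pairs of groups (r across genes 0.696 to 0.89, median 0.811), so the groups largely shared it. This does not show that single vehicle and bortezomib libraries were handled as pairs. voom was run on recovered reads. Python 3.11.15, numpy 2.4.6, pandas 2.3.3 and matplotlib 3.10.9 were used.

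Members, lists and alternatives were chosen with earlier results of these data known. Values per library were given for members called without the block, for the 5 highest and 5 lowest changes with bortezomib, the 2 highest and 2 lowest for the knockout and for the interaction, and the 3 highest levels. In each list but the modifiers the gene with the largest change was named. The values of 1 member, which is in the counts, and of 1 modifier gene are not reported here. UBE2J2, UBE2W and other genes outside this rule were named after their values were seen. In the lists 1 symbol had been stored as a date and was matched by its gene ID. Alternatives changed the pseudocount, filter, scaling, test, block and libraries.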

Additional observations from a re-analysis of the deposited data

Results flagged for a closer look

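UBE2O responded to bortezomib with a log2 change that was lower in the KO lines, KO mean minus control -1.01, in voom with the replicate block (SE 0.20, adjusted p = 0.0186), a test of the difference itself. In the fits that changed the setting the adjusted p ranged from 0.0186 to 1 and only this one passed. The log2 difference lay between -1.02 and -0.95 in these 11 fits.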

How the results depend on the processing

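Adding the replicate block raised the number of members called for bortezomib over the 3 lines from 2 to 22 with either form of the block (54.9% of all genes in each) and to 23 with voom and the block (58.0%), from 11.6% of all genes without it. The counts became 10, 11 and 12 in the control line, 14, 14 and 16 in KO1 and 9, 11 and 12 in KO2 for the block by suffix, the block with unnumbered libraries on R1, and voom with the block (32.4%, 32.5% and 37.9% of all genes, 27.7%, 27.9% and 32.9%, and 27.0%, 27.0% and 32.4%). With the unnumbered libraries on R1 2 members were called in KO1 and 1 in KO2 with vehicle, and voom with the block called 1 in KO1 and 1 in the interaction. The block changed no other count of members. Without the block, no filter left 1 member (UBE2O) called over the 3 lines, and rescaling to a common sum left 0 (4.31% and 9.09% of all genes). Quantile normalization without the block called 3, UBE2C and UBE2T lower and UBE2J2 higher, against 1712 of 12194 genes. Leaving out 1 library gave 0 to 2 (5.68% to 9.53%).

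Chosen after seeing the data, fits to the unnumbered and R1 libraries alone called 17 members and to R2 alone 16. Leaving out 1 library with the block gave 16 to 24 members over the lines (47.0% to 54.4% of all genes), 4 to 13 in the control line (14.3% to 35.8%), 5 to 16 in KO1 (10.8% to 28.2%) and 4 to 13 in KO2 (9.32% to 29.7%). Where a library was left out, its group had a lone library, assumed to vary like the others. The sign changed in some of those fits without the block for UBE2E3 with bortezomib (-0.43 to 0.10), for UBE2L6 (-1.03 to 0.18), UBE2Q1 (-0.16 to 0.80) and UBE2S (-0.97 to 0.012) in the KO lines, and for UBE2M in the interaction (-0.83 to 0.25). None of these was called in those fits, and the cause was not tested. UBE2E3 with bortezomib, and UBE2S and UBE2L6 in single KO lines, were called in other fits given above. Over 24 results for single members and 22 alternatives each, 460 of 528 kept direction and side of the threshold, 39 newly passed, 20 no longer passed and 9 changed sign. With 2 libraries a group and a large replicate difference, small changes were not detectable without the block. Larger changes were also not called in limma without it, such as UBE2H over the lines (log2 fold change 0.93) and UBE2O in the control line (1.23).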
